A study of Mus musculus with 8 samples.

Results

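The genes Jun, Junb, Jund, Fos, Fosb, Fosl2, Atf3, Egr1, Ier2 and Nr4a1 were followed in the livers of control mice and of mice with nonalcoholic steatohepatitis (NASH) and fibrosis. They are 10 of the 55450 genes in the table, taken by their symbols. Wild-type C57BL/6 mice received a high-fat diet (HFD+F+CCl4, n = 3) or a western diet (WD+F+CCl4, n = 3), each with sugared drinking water holding fructose and with intraperitoneal carbon tetrachloride, for 16 weeks. Control mice (n = 2) had normal chow and plain water, and nothing in the sources used here describes a vehicle injection for them. Liver cells of each mouse were released with collagenase IV and papain and sequenced as 1 droplet library. Levels are given as CPM, the UMIs of a gene per 1000000 UMIs summed over all cells of a type in 1 mouse, and a mouse entered only with at least 20 cells of that type.

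AP-1 is a dimeric transcription factor made of Jun proteins (Jun, Junb, Jund), alone or with Fos proteins (Fos, Fosb, Fosl2) or relatives such as Atf3. Its genes belong with Egr1, Ier2 and Nr4a1 to the immediate early genes, which are transcribed within minutes of growth factors, inflammatory signals or cell stress, without new protein synthesis, and whose mRNAs are short-lived. In liver, Jun and Fos are known for their induction in injury and regeneration, and tissue digestion at body temperature is known to induce the same genes.

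The 8 libraries held between 6135827 and 64855024 UMIs, and 80474 of 88581 barcodes passed the study's filter on genes and mitochondrial UMIs. Clustering without these genes gave 15 marker-defined cell types with 73789 cells, which are called by the name of the markers and "like". Library pairs shared between 8 and 46 kept barcodes. HFD+F+CCl4 replicate 1 stood apart for these genes, and so, for some of them, did WD+F+CCl4 replicate 3, so the calls against control are also given without the former and, for WD+F+CCl4, without both. Median mitochondrial shares per kept cell were 1.73% and 2.14% in these libraries, between 0.914% and 1.07% in the other 4 NASH mice, and 1.74% and 3.66% in the control mice. Against control, 8 cell types had enough cells. Macrophage-like, Kupffer cell-like, patrolling monocyte-like, neutrophil-like, hepatocyte-like, stellate cell-like and erythroid cell-like cells had too few control cells for a test under these names. The control mice did hold hepatocytes: clusters 10 and 11, 2041 and 1924 cells that scored highest for the hepatocyte markers, came almost wholly from control mice (2018 cells of cluster 10 from control replicate 2 and 1894 of cluster 11 from control replicate 1) and were left unnamed because each was mostly from 1 mouse. Jun was at 47.7 and 57.1 CPM in those cells of these 2 mice, and no NASH mouse had enough cells there to be set beside them.

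Promoters of 8 of the 10 genes were in the RefSeq table of GRCm38.p6, from 250 bases before to 50 after the start site, and none was in it for Egr1 and Ier2. Those of Jun (chr4:95052173-95052472, minus strand), Fos (chr12:85473640-85473939, plus strand) and Nr4a1 (chr15:101266596-101266895, plus strand, inside the annotated gene) are shown because Jun and Fos were high together in both libraries that stood apart, and Nr4a1 in only 1 of them. Capitals mark TGACNTCA and TGACG on either strand, letters of sites that AP-1, ATF and CREB proteins can bind. The lines read 5′ to 3′ on the gene's strand.
Jun: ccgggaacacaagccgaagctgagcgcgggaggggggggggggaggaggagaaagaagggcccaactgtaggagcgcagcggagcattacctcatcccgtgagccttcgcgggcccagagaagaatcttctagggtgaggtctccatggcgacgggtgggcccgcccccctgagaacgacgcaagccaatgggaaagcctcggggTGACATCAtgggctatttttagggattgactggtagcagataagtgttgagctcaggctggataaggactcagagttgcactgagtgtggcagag
Fos: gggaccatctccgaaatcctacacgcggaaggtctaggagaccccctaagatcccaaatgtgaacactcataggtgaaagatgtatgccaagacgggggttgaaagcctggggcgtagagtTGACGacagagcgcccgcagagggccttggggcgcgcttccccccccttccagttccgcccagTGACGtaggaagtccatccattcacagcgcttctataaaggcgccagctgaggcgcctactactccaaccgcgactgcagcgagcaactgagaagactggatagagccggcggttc
Nr4a1: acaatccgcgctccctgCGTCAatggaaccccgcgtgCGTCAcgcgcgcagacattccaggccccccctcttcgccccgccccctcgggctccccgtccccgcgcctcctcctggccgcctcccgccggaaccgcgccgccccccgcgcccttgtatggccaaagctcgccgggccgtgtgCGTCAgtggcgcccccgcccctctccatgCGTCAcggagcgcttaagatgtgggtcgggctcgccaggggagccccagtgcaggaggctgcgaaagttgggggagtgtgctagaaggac
TGACNTCA was found in 1 of the 8 promoters (Jun) and in 8.83% of all 32851 promoters in the table. TGACG was in 5 of 8 and in 20.8% of all. TGCGTCA, each copy of which also counts as a TGACG on the other strand, was in 2 of 8, Nr4a1 with 4 copies and Fosb with 1, and in 2.12% of all. These matches are letters in a window and not measured sites.

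Jun, the founding AP-1 subunit, separated the NASH mice from the control mice in 7 of 8 tested cell types. In T cell-like cells it was at 74.0 and 57.3 CPM in control replicates 1 and 2. The HFD+F+CCl4 mice had 1033, 91.8 and 142 CPM in replicate order, and the WD+F+CCl4 mice 154, 130 and 586 CPM. All 6 NASH mice lay above both control mice, with HFD+F+CCl4 replicate 1 and WD+F+CCl4 replicate 3 far above the other 4. In conventional DC-like cells the controls had 60.5 and 20.7 CPM and the NASH mice 104 to 1281 CPM, with a median of 218. Cholangiocyte-like cells were the exception, since control replicate 1 was at 210 CPM and the lowest NASH mouse at 190. Over all 10 genes, the lowest NASH mouse exceeded the higher control in 28 of 80 pairs of gene and cell type, and this held for 12.7% of all genes tested in these types. By gene, this was so in 7 types for Jun, 6 for Nr4a1, 5 for Junb, 4 each for Fos and Atf3, 1 each for Fosl2 and Egr1, and none for Jund, Fosb and Ier2. By cell type, 5 of 10 genes had this order in T cell-like, NK cell-like and plasmacytoid DC-like cells, against 11.8%, 11.0% and 6.91% of all genes tested there. It held for 3 of 10 in cholangiocyte-like, conventional DC-like and endothelial cell-like cells (13.9%, 17.0% and 13.3% of all genes) and for 2 of 10 in classical monocyte-like and B cell-like cells, where 18.6% and 6.2% of all genes did. The count was also 28 without HFD+F+CCl4 replicate 1, and between 28 and 37 without any 1 mouse, but 15 once the cells with the highest doublet scores had been removed. The share of all genes was not counted under these changes, so the counts cannot be set beside it.

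**Figure D1:**
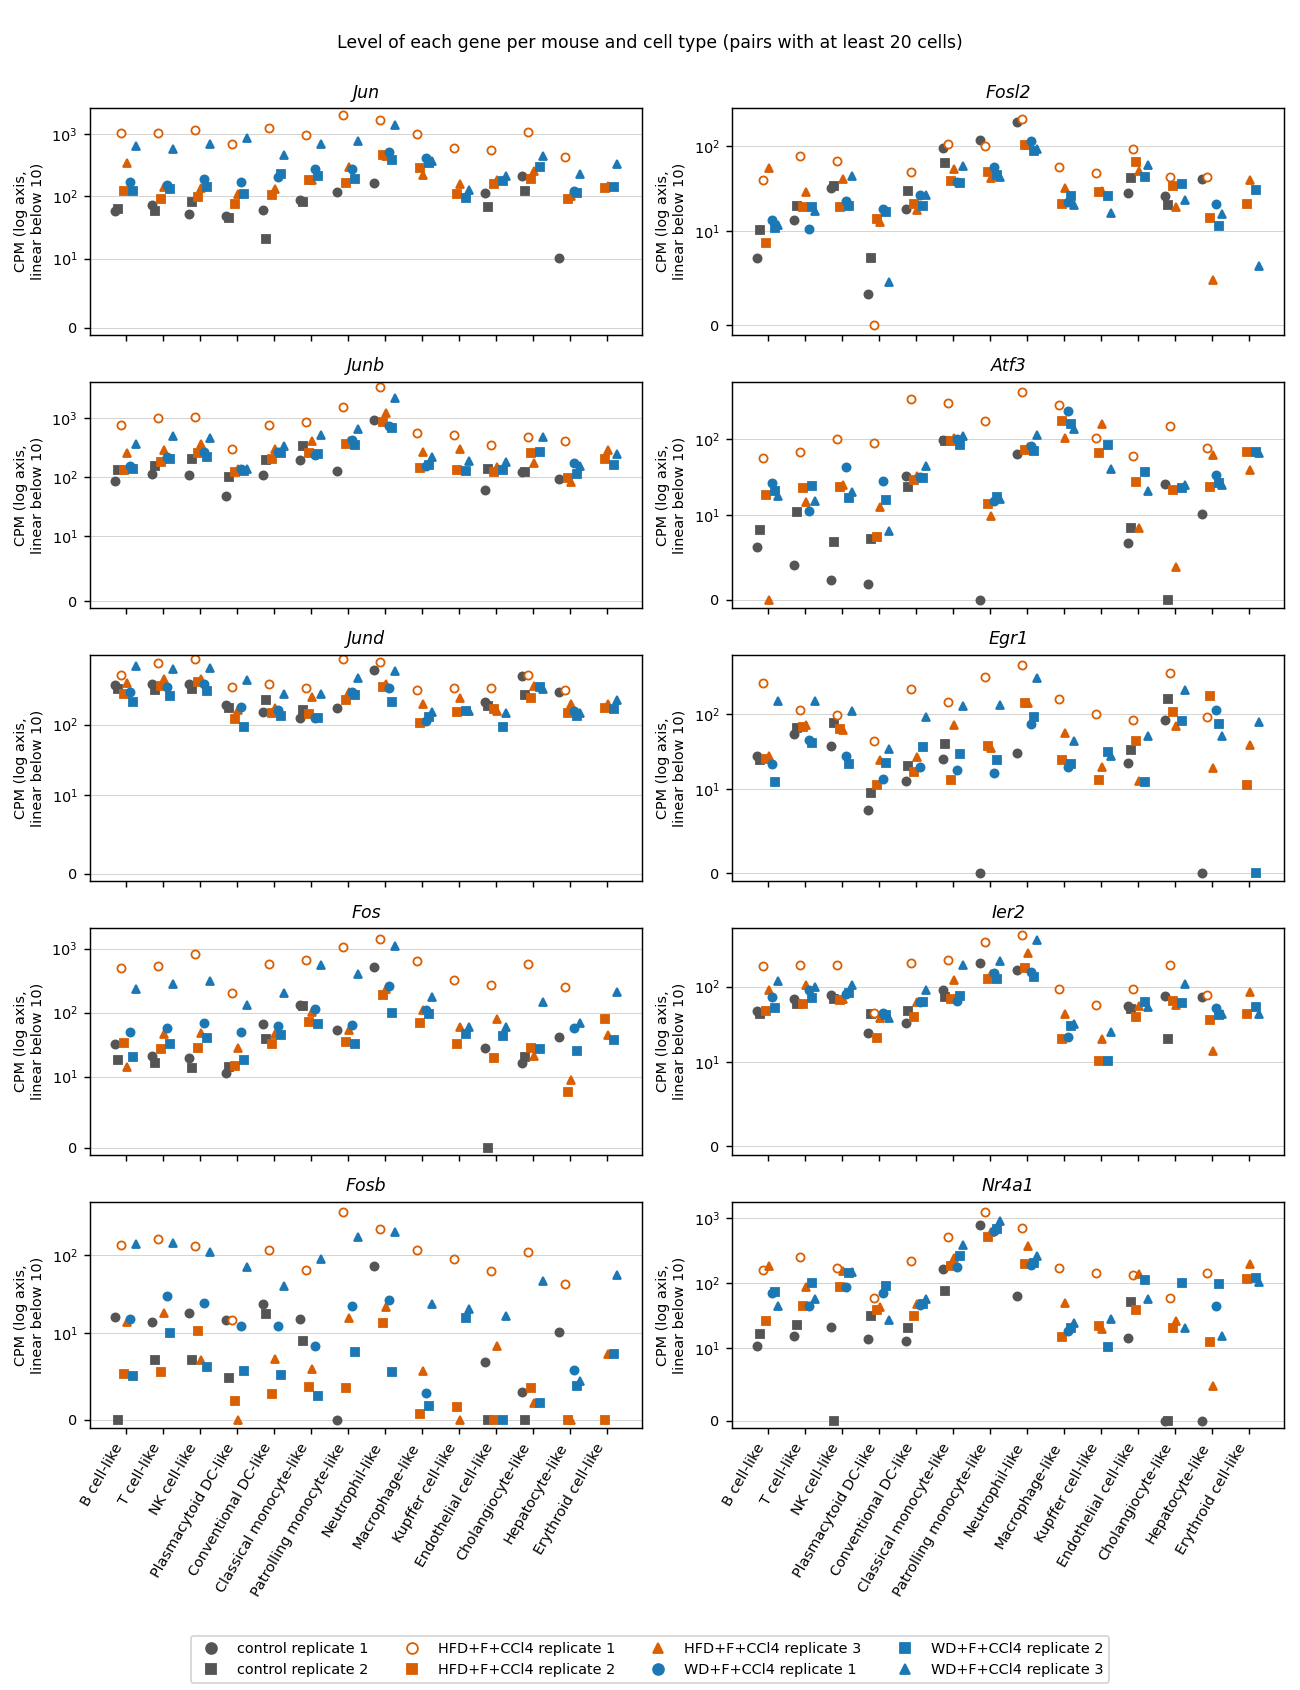
CPM of each gene (log axis, linear below 10) in 14 cell types, 1 point per mouse with at least 20 cells, coloured by group, with HFD+F+CCl4 replicate 1 as an open circle. The open circle is the highest point in 111 of 130 pairs of gene and cell type in which this mouse could be set beside the others, while the 4 other filled NASH points mostly lie close together, with WD+F+CCl4 replicate 3 above them for Jun, Fos and Fosb.

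The first comparison set HFD+F+CCl4 mice against control mice. By edgeR's quasi-likelihood test on counts summed per mouse and type, 7 of 80 pairs rose at an adjusted p under 0.05 and none fell, while 2.45% of all genes tested in the same 8 types rose and 1.93% fell. DESeq2 called 8, all higher. All 80 pairs passed the filter on low counts. The fitted difference was positive in 76 of 80 pairs, with a median log2 value of 1.48, against 0.02 for all genes tested. In B cell-like cells (4.19% of genes higher) Jun rose by 3.25 ± 0.84 on the log2 scale (SE, edgeR adjusted p = 0.0337). Its levels there were 59.2 and 63.8 CPM in control mice and 1046, 123 and 349.7 CPM in HFD+F+CCl4 mice. Atf3, a stress-induced member of the ATF family, rose in the same cells (2.24 ± 0.59, edgeR adjusted p = 0.0374), although the library of 33 B cell-like cells in HFD+F+CCl4 replicate 3 held no Atf3 UMI. Nr4a1, an orphan nuclear receptor induced by antigen receptor signals, rose there as well (3.27 ± 0.67, edgeR adjusted p = 0.00892).

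NK cell-like cells (4.18% of genes higher) gave 3 calls. Junb, which can oppose Jun, rose from 110 and 199 CPM in control mice to 1029, 251 and 358 CPM (2.01 ± 0.53, edgeR adjusted p = 0.0359). Atf3 rose from 2.29 and 6.86 CPM to 100.4, 23.4 and 25.2 CPM (4.03 ± 0.90, edgeR adjusted p = 0.0159). Its control levels rest on very few UMIs, since these cells held 1308907 and 145681 UMIs in all in control replicates 1 and 2. Without control replicate 1 its log2 difference was 2.95. Nr4a1 was at 21.4 CPM and at 0 UMIs in the control mice and at 173, 87.3 and 151 CPM in the HFD+F+CCl4 mice (2.93 ± 0.47, edgeR adjusted p = 0.00214). In T cell-like cells (4.35% of genes higher) Nr4a1 was the 1 gene that passed the test, from 15.7 and 23.1 CPM to 254, 45.2 and 88.2 CPM (2.77 ± 0.69, edgeR adjusted p = 0.0425). These cells join cluster 4, mostly of NASH mice, and cluster 7, mostly of control mice. In each of these calls HFD+F+CCl4 replicate 1 or 3 was the highest mouse of the group, and for all but Atf3 in B cell-like cells the 3 HFD+F+CCl4 mice lay above both control mice. Only 3 of the 7 calls remained without HFD+F+CCl4 replicate 1: Atf3 and Nr4a1 in NK cell-like cells and Nr4a1 in T cell-like cells. They were 3.85% of 78 pairs, against 2.16% of all genes. Without that mouse the log2 differences of Jun, Atf3 and Nr4a1 in B cell-like cells were 1.98, 1.38 and 2.67, that of Junb in NK cell-like cells 1.21 and that of Nr4a1 in T cell-like cells 1.94. Without control replicate 1, whose absence leaves a control mouse at 0 UMIs of Nr4a1 in NK cell-like cells, the fitted value there was 9.11, which is no bound. The number of calls was 1 without control replicate 1, 4 without control replicate 2 or WD+F+CCl4 replicate 1, and 14 without HFD+F+CCl4 replicate 2.

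Fos, Fosb, Fosl2, Egr1, Ier2 and Jund gave no call against control in either diet. Fos had the largest median among them in each diet, with differences from 1.05 to 3.95 on the log2 scale over the 8 types under HFD+F+CCl4 (median 2.73) and from 0.82 to 2.79 under WD+F+CCl4 (median 2.24). In T cell-like cells it was at 20.7 and 16.2 CPM in the control mice, 534, 27.0 and 46.7 CPM in the HFD+F+CCl4 mice and 57.8, 32.7 and 284 CPM in the WD+F+CCl4 mice. All 6 NASH mice were above the control mice, but the group means rested on HFD+F+CCl4 replicate 1 and WD+F+CCl4 replicate 3. In classical monocyte-like cells the other 4 NASH mice, at 66.8 to 115 CPM of Fos, were below both control mice at 131 and 126 CPM. Fosb in the same cells was at 15.3 and 9.03 CPM in control mice, 64.9 and 88.8 CPM in the mice that stood apart, and 2.77 to 8.51 CPM in the other 4. Thus those 2 mice and the other 4 lay on opposite sides of the control mice there, which was not tested. In a finer clustering (resolution 0.8), control replicates 1 and 2 had 377 and 174 such cells in a cluster led by Cxcl10 and Cxcl9. They had 20 and 19 in one led by Vcan. The NASH mice had 37 to 89 cells in the former and 288 to 2198 in the latter. The make-up of classical monocyte-like cells thus differed between groups. Its part in any comparison with control in these cells was not tested. Egr1 had medians over the types of 1.20 and 0.89 on the log2 scale and Ier2 of 0.76 and 0.55, under HFD+F+CCl4 and WD+F+CCl4. Fosl2 had 0.85 and 0.24, with 2 of 8 types negative under WD+F+CCl4, and Jund 0.36 in both, with 2 of 8 types negative in each.

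WD+F+CCl4 mice gave 7 calls of 80 against control, again all higher (3.88% of all genes tested were higher and 3.43% lower), and DESeq2 gave 4. Their median log2 difference was 1.11, with 74 of 80 values positive. Plasmacytoid DC-like cells (3.77% of genes higher) held 3 of the calls. Jun was at 48.4 and 45.3 CPM in control mice and at 173, 109 and 859.5 CPM in WD+F+CCl4 mice (3.09 ± 0.89, edgeR adjusted p = 0.0446). Junb was at 47.9 and 100.2 CPM against 135, 126 and 134 CPM, a rise of 1.08 ± 0.31 on the log2 scale (edgeR adjusted p = 0.0415). Nr4a1 was at 13.8 and 31.0 CPM against 70.2, 89.5 and 27.7 CPM, so that WD+F+CCl4 replicate 3 fell between the control mice (1.84 ± 0.47, edgeR adjusted p = 0.0262). For Jun this same mouse was the highest, and for Junb the 3 mice were close together. Atf3 and Nr4a1 rose in B cell-like cells, by 1.91 ± 0.53 and 2.58 ± 0.62 (edgeR adjusted p = 0.0307 and 0.0146), and in NK cell-like cells, by 3.36 ± 0.92 and 2.83 ± 0.47 (edgeR adjusted p = 0.0303 and 0.00152). B cell-like cells had 6.81% and NK cell-like cells 6.58% of genes higher. Without HFD+F+CCl4 replicate 1, which shares the estimate of spread but not the comparison, 15 of 78 pairs passed, 6 of the 7 among them. This was 19.2%, against 4.35% of all genes. Without both that mouse and WD+F+CCl4 replicate 3, 24 of 77 pairs rose and 1 fell, all 7 among the former. These were 31.2% and 1.30%, against 5.19% and 4.65% of all genes. The added ones included Jun in B cell-like, T cell-like, NK cell-like, conventional DC-like and classical monocyte-like cells. Both mice were left out because they stood apart for these same genes, a choice made with the data known. Leaving them out narrows the spread of these genes by choice. The shares of 19.2% and 31.2% are therefore no fair comparison with those of all genes. Without control replicate 1 only 1 call was left, and Junb and Nr4a1 in plasmacytoid DC-like cells were at 0.52 and 1.11 on the log2 scale and Atf3 in NK cell-like cells at 2.30. Without WD+F+CCl4 replicate 3 Jun in plasmacytoid DC-like cells was at 1.66. The comparisons of both diets share the 2 control mice, and p-values measure the spread between mice of 1 library each.

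**Figure D2:**
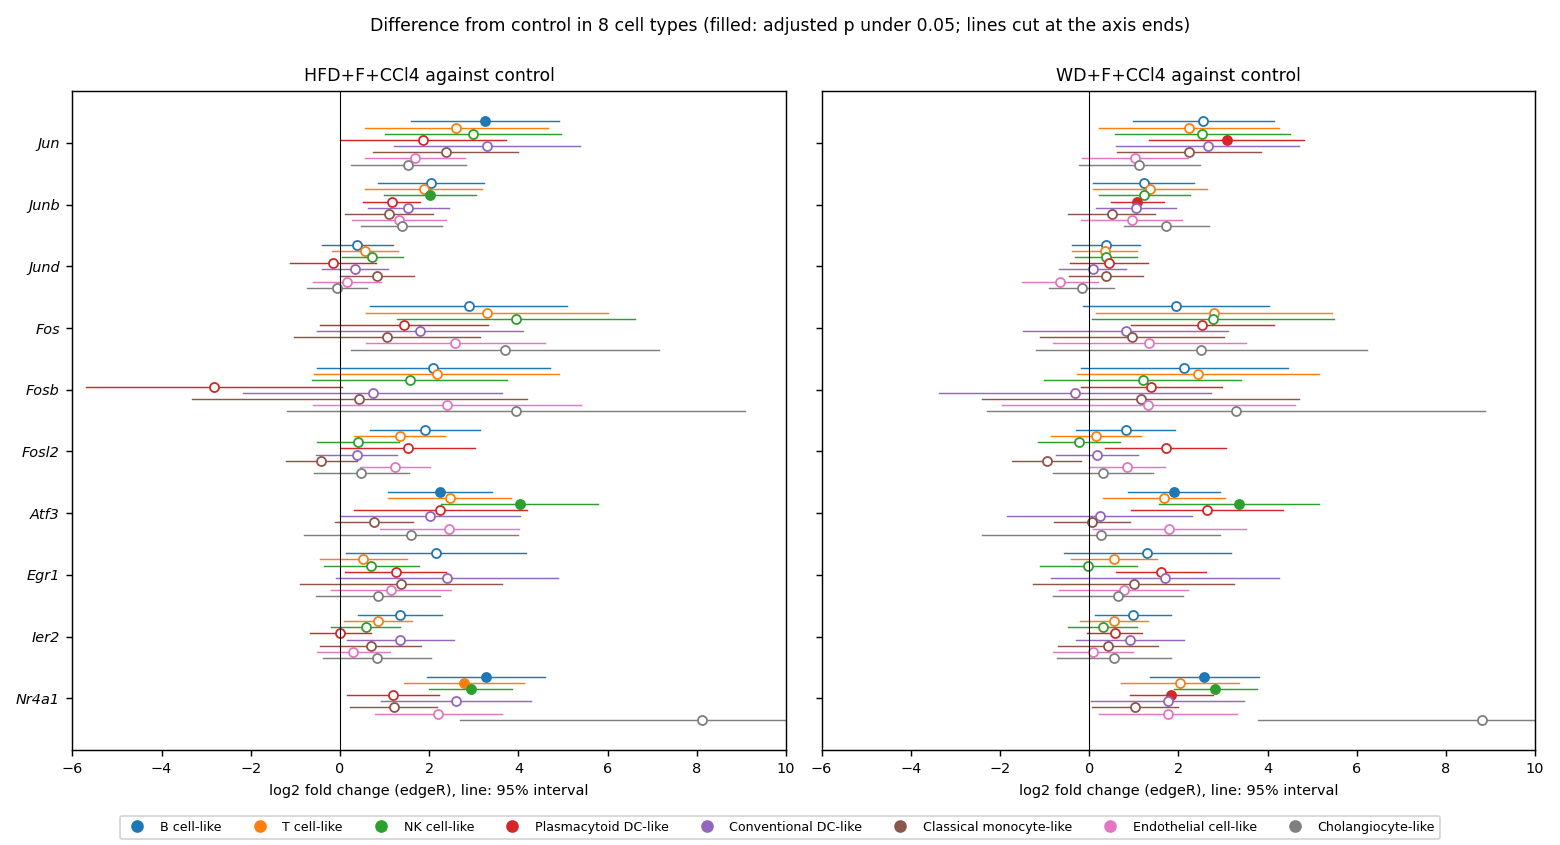
Log2 fold change against control (x axis) of each gene (rows) in 8 cell types (colours), with the 95% interval as a line and filled points at an adjusted p under 0.05. Filled points are at Jun, Junb, Atf3 and Nr4a1, 7 in each panel, while Jund stays near 0. Nr4a1 in cholangiocyte-like cells, far to the right, has both control mice at 0 UMIs, so its fitted value is no bound. The floor of 3 counts in 359400 control UMIs, pooled over both control mice, is 8.35 CPM. The mean of the NASH mice, 45.8 ± 35.1 CPM (SD, n = 5), was 5.48 times this pooled floor, and the lowest of them had 20.4 CPM. Control replicate 2 held only 49845 of the control UMIs, so the floor is no bound for that mouse alone.

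Markers of other cells moved with these calls. The summed level of 8 macrophage markers (among them Trem2, Gpnmb, C1qa and C1qb) in B cell-like cells was 34.97 and 45.98 CPM in control mice, 357 to 2550 CPM in HFD+F+CCl4 mice and 957 to 1596 CPM in WD+F+CCl4 mice, with all 8 markers detected in each group. In NK cell-like cells the ranges were 54.9 to 167 CPM in control mice, with Trem2 at 0, and 646 to 1993 CPM in NASH mice. Macrophage-like cells themselves had 8433 to 12110 CPM. In T cell-like and plasmacytoid DC-like cells this sum was at most 100 CPM in control mice and at least 472 CPM in NASH mice. The genes differed in how they stood to these markers. For each 1000 CPM of macrophage markers, Atf3 had a median of 17.7 CPM in B cell-like, 17.6 in T cell-like and 26.5 in NK cell-like cells of the 6 NASH mice, and 18.8 in macrophage-like cells. Jun had medians of 294, 169 and 172 CPM in the same lymphoid cells, against 37.4 in macrophage-like cells, and Junb 190, 291 and 350 against 19.2. Both were highest in neutrophil-like cells, and the summed level of 7 neutrophil markers also differed between mice. It was 122 to 680 CPM in control mice, 942 to 1789 in HFD+F+CCl4 mice and 95.8 to 2894 in WD+F+CCl4 mice in plasmacytoid DC-like cells, and 382 to 1002, 133 to 848 and 408 to 3197 CPM in NK cell-like cells. In B cell-like cells it was 586 to 640, 162 to 1161 and 436 to 2187 CPM, and in T cell-like cells 239.5 to 716, 127 to 357.5 and 114 to 255 CPM. For each 1000 CPM of these markers Jun had 59.6 to 8976 CPM in the NASH mice over these 4 types and 2.65 to 27.5 in neutrophil-like cells, and Junb 46.5 to 7069 against 4.59 to 54.6. Nr4a1 was set beside the 6 patrolling monocyte markers, since its level peaked in those cells. It had 153, 111, 127 and 110 CPM for each 1000 CPM of them in B cell-like, T cell-like, NK cell-like and plasmacytoid DC-like cells, and 172 in patrolling monocyte-like cells. The summed patrolling monocyte markers in NK cell-like cells were 446 to 520 CPM in control mice, with Cd300e at 0, and 582 to 1247 CPM in NASH mice. Removing the cells with the highest doublet scores left 2 calls for HFD+F+CCl4, Nr4a1 in B cell-like and Junb in NK cell-like cells. It left none for WD+F+CCl4, where 12 of 75 pairs were under an unadjusted p of 0.05. No share of all genes is set beside these counts, and removing cells leaves fewer counts for every gene. The drop in calls therefore does not show a loss particular to the genes followed here. Without those cells the mean level of Nr4a1 over the NASH mice was 73.2 CPM in NK cell-like and 21.9 CPM in plasmacytoid DC-like cells, against 132 and 54.7 CPM with them. The log2 differences of the called pairs moved unequally. Under HFD+F+CCl4 they were then 2.98 for Jun, 3.30 for Nr4a1 and 1.5 for Atf3 in B cell-like cells, 2.06 for Junb and 2.04 for Nr4a1 in NK cell-like cells and 2.36 for Nr4a1 in T cell-like cells. Under WD+F+CCl4 they were 3.08 for Jun, 0.52 for Junb and 0.03 for Nr4a1 in plasmacytoid DC-like cells, 1.57 for Nr4a1 and 1.14 for Atf3 in B cell-like cells and 1.79 for Nr4a1 in NK cell-like cells. Atf3 in NK cell-like cells no longer passed the filter on low counts. The part of RNA from other cells in the calls of Jun, Junb, Atf3 and Nr4a1 was not tested. The levels set beside markers above do not separate such RNA from the cells' own.

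No gene passed in the comparison of the diets with each other. In WD+F+CCl4 against HFD+F+CCl4 mice, edgeR and DESeq2 both called 0 of 80 pairs, with 3 and 4 at an unadjusted p under 0.05, in types where 0.00117% of all genes were higher and 0.02% lower. The fitted difference was negative in 65 of 80 pairs, with a median of -0.38 on the log2 scale. In 6 further types without enough control cells, where only the NASH mice were fitted, 0 of 57 pairs passed. The smallest unadjusted p-values there were in Kupffer cell-like cells, with 5 of 10 genes under 0.05, against 430 of 9560 genes tested there, and differences between -1.50 and -0.56. For Jun in these cells, HFD+F+CCl4 replicate 1 was far above the rest, at 602 CPM against 111 and 160 CPM in the other HFD+F+CCl4 mice and 94.1 and 125 CPM in 2 WD+F+CCl4 mice. The effects of the models were also compared between summed myeloid and summed lymphoid cells. None of the 20 differences passed with edgeR, while DESeq2 called 1. By edgeR 5 of the 20 were at an unadjusted p under 0.05. This was a share similar to that of all genes, 3692 and 4004 of 15428 under HFD+F+CCl4 and WD+F+CCl4. Among all genes the difference was called higher for 3.40% and lower for 5.44% under HFD+F+CCl4 and for 4.28% and 6.35% under WD+F+CCl4. The closest was Fosb, a short-lived Fos protein, whose WD+F+CCl4 effect was lower in myeloid cells by 1.55 ± 0.45 on the log2 scale (edgeR adjusted p = 0.0515). It was called in 9 of 17 alternatives. The make-up of the summed myeloid cells differed between groups. Control replicates 1 and 2 had 40 and 12 patrolling monocyte-like and 15 and 3 macrophage-like cells, against 1211 to 3194 and 1247 to 3039 in the NASH mice. They had 194 and 239 conventional DC-like cells, against 384 to 1170. The part of this make-up in the differences between lineages was not tested.

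HFD+F+CCl4 replicate 1 had the highest value of all mice in 111 of 130 pairs of gene and cell type, against 19.3% for all genes tested. It had at least 2 times the median of the other NASH mice, those without replicate 3 of WD+F+CCl4, in 112 of 129 pairs with a median above 0, against 8.32% of all genes. WD+F+CCl4 replicate 3 did so in 55 of 139 pairs, against 3.65%, and was the highest of all mice in 14 of 140, against 8.73%. The latter mouse was singled out after its levels had been seen, and HFD+F+CCl4 replicate 1 with earlier results of these data known. The ratios of both are a description with no test. The genes split in their ratios. In HFD+F+CCl4 replicate 1 Fos, the partner of Jun, was at 6.16 to 23.5 times the other NASH mice over 13 types, with a median of 12.8. Fosb had a median of 17.0 over 12 types and Jun of 5.44. Egr1, a zinc finger factor, followed with 5.08, Junb with 3.84, Atf3 with 3.64 and Ier2, a small nuclear protein, with 2.93. Nr4a1 (2.44), Fosl2 (2.38) and Jund (2.20) were lowest. In WD+F+CCl4 replicate 3 the medians were 12.4 for Fosb, 5.24 for Fos, 2.91 for Jun and 2.63 for Egr1, and near 1 for Nr4a1 (1.05), Fosl2 (0.904) and Atf3 (0.88). Neither Nr4a1 nor Atf3 reached 2 times in any of 14 types there. Thus Fos, Fosb, Jun and Egr1 were high in both libraries, and Atf3 in the former alone, where it reached 11 of 13 types.

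Cell types differed as well. In HFD+F+CCl4 replicate 1 the median ratio over the 10 genes ran from 2.18 in endothelial cell-like cells to 6.08 in conventional DC-like and 6.19 in patrolling monocyte-like cells, and all 10 genes were highest in it in macrophage-like, neutrophil-like and conventional DC-like cells. WD+F+CCl4 replicate 3 had medians of 2.42 in B cell-like and 2.53 in neutrophil-like cells but 1.26 in macrophage-like, 1.33 in Kupffer cell-like, 1.17 in endothelial cell-like and 1.16 in hepatocyte-like cells. Jun in macrophage-like cells was at 378 CPM in that mouse, between the 346.5 and 414 CPM of the other WD+F+CCl4 mice, whereas in classical monocyte-like cells it was at 709.7 CPM against 272 and 214.

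**Figure D3:**
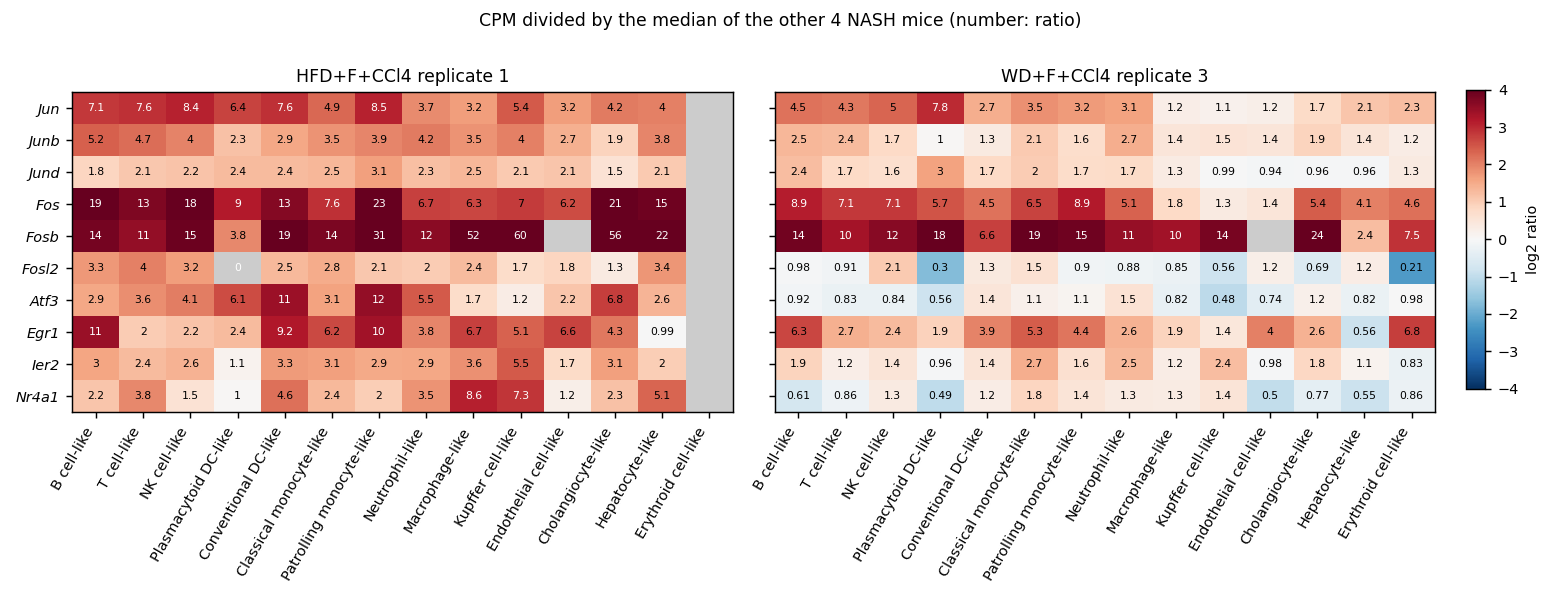
CPM in HFD+F+CCl4 replicate 1 (left) and WD+F+CCl4 replicate 3 (right) divided by the median of the other 4 NASH mice, or of 3 where 1 of them had fewer than 20 cells, for each gene (rows) and cell type (columns). Numbers are ratios, colour is their log2, and grey marks a ratio of 0 or a median or cell number too low. Red fills nearly all of the left panel, and in the right panel it is deepest for Fos and Fosb and absent from most of the rows of Fosl2, Atf3 and Nr4a1.

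Levels of 2 heat shock genes moved with these. The near-identical Hspa1a and Hspa1b, inducible HSP70 chaperones whose reads can be exchanged between the copies, were summed. Their sum over 14 cell types of HFD+F+CCl4 replicate 1 had a median of 428 CPM, and that of WD+F+CCl4 replicate 3 of 132 CPM, while the medians of the other 6 mice were 34.3 to 58.9 CPM. The 10 other chaperones of the list did not stand apart in this way, with medians of 3018 and 3186 CPM in the same 2 mice and 2685 to 3977 CPM in the rest. In patrolling monocyte-like cells Hspa1a and Hspa1b together were at 2139 CPM in HFD+F+CCl4 replicate 1, 567 in WD+F+CCl4 replicate 3 and 67.8 to 199 in the other NASH mice. The summed level of the 10 genes was 7970, 3716 and 1532 to 1943 CPM in the same order.

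**Figure D4:**
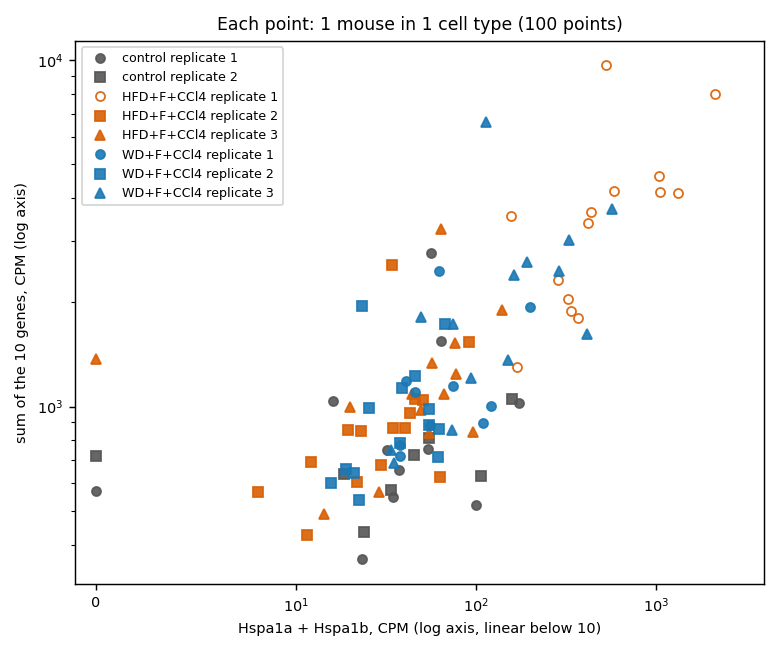
Summed CPM of the 10 genes (y axis, log) against summed Hspa1a and Hspa1b (x axis, log above 10), 1 point for each of 100 pairs of mouse and cell type. The open circles of HFD+F+CCl4 replicate 1 lie to the right of most other points, from 156 to 2139 CPM on the x axis, followed by the triangles of WD+F+CCl4 replicate 3.

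The difference was also looked at cell by cell. Each cell of 6 types was thinned to 1000 UMIs, which left out shallower cells, and the UMIs of the 10 genes were counted. In patrolling monocyte-like cells the median cell had 8 of them in HFD+F+CCl4 replicate 1, with a 10th percentile of 3 and a 90th of 15, from 2752 of 2982 cells. In WD+F+CCl4 replicate 3 the median was 3, with a 10th percentile of 0 and a 90th of 8, and in the other 4 NASH mice it was 1 or 2, with a 90th percentile of 3 or 4. Hence the 10th percentile of that first mouse lay above the median cell of the other 4. Classical monocyte-like cells had medians of 4 and 3 in those mice and 1 in all other mice, control mice included. In control replicate 2 only 57 of 190 of these cells were deep enough. Macrophage-like cells had a median of 3 in HFD+F+CCl4 replicate 1 and of 1 in all other NASH mice, WD+F+CCl4 replicate 3 among them. Before thinning, the genes made up 79.7 of 10000 UMIs of patrolling monocyte-like cells in HFD+F+CCl4 replicate 1, 37.2 in WD+F+CCl4 replicate 3 and 15.3 to 19.4 in the other NASH mice.

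**Figure D5:**
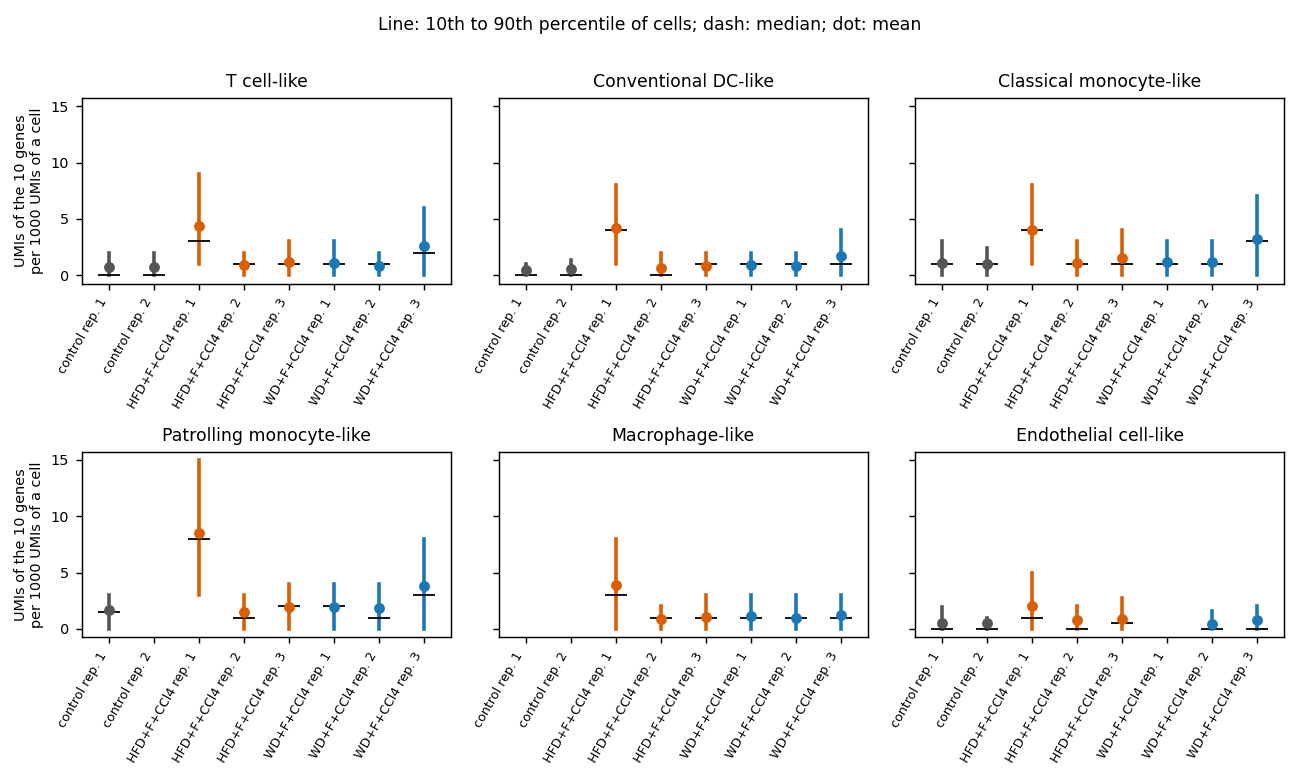
UMIs of the 10 genes per 1000 UMIs of a cell (y axis) in 6 cell types for each mouse (x axis), as the 10th to 90th percentile of cells (line), their median (dash) and mean (dot). In patrolling monocyte-like cells the line of HFD+F+CCl4 replicate 1 runs from 3 to 15, against at most 4 at the upper end in the other NASH mice apart from WD+F+CCl4 replicate 3, which reaches 8.

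Levels were then ordered by cell type. Over the NASH mice, neighbours in the order of 14 cell types differed by more than the larger of their SDs in 3 of 130 cases. Nr4a1 was highest in patrolling monocyte-like cells, at 752 ± 258 CPM (SD, n = 6), above the neutrophil-like cells next in order (317 ± 194 CPM) in 6 of 6 mice. Without HFD+F+CCl4 replicate 1 the values were 659.5 ± 137 and 243 ± 75.0 CPM. The 40 patrolling monocyte-like cells of control replicate 1 had 764 CPM, inside the NASH range of 516 to 1216 CPM. Classical monocyte-like cells (292 ± 132 CPM) were also above their next neighbour by more than the spread. In macrophage-like cells Nr4a1 was at 14.8 to 50.3 CPM in 5 NASH mice and at 169 CPM in HFD+F+CCl4 replicate 1. Fosl2, a Fos protein with a longer-lived product, was highest in neutrophil-like cells, at 119 ± 46.2 CPM (SD, n = 6), above endothelial cell-like cells (62.4 ± 18.8 CPM, n = 5) in 5 of 5 mice.

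For the other genes each difference between neighbours was smaller than the larger of their SDs over mice, although the same mice gave both levels and some orders held within every mouse. Junb was highest in neutrophil-like cells (1498 ± 1058 CPM, SD, n = 6), above the next type in 6 of 6 mice, and control replicate 1 had 910.4 CPM there. Jun (814 ± 570 CPM), Fos (548 ± 558 CPM), Egr1 (198 ± 144 CPM) and Ier2 (271 ± 144 CPM) were also highest in neutrophil-like cells, and the spread between mice was wide. Within mice, neutrophil-like cells were above the next type in 6 of 6 for Fos and Ier2, in 5 of 6 for Jun and in 5 of 5 for Egr1. Fosb was at 96.0 ± 142 CPM in patrolling monocyte-like cells, where the median was 18.8. Atf3 was highest in macrophage-like cells, at 181 ± 64.3 CPM, followed by neutrophil-like (138 ± 136 CPM) and classical monocyte-like cells (131 ± 81.5 CPM). Without HFD+F+CCl4 replicate 1 those 3 values were 162 ± 47.8, 82.8 ± 17.6 and 98.2 ± 10.4 CPM. Jund, a Jun protein with high basal expression in many tissues, differed least, from 166 ± 75.3 CPM in macrophage-like to 499 ± 206 CPM in NK cell-like cells, which were above T cell-like cells in 6 of 6 mice. Its control values of 378 and 323 CPM in NK cell-like cells lay among the NASH values of 294 to 856 CPM.

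Another 4 lists of genes were counted in the same fits. Of 34 other immediate early genes, 32 were tested, and 12 of 241 pairs of gene and type rose under HFD+F+CCl4 and 1 fell (4.98% and 0.415%, against 2.45% and 1.93% of all genes), with a median log2 difference of 0.73. Without HFD+F+CCl4 replicate 1, 4 of 232 rose (1.72%, against 2.16% of all genes), so that the share was then not above that of all genes. Nr4a2, a sister of Nr4a1, rose by 4.09 ± 0.98 in T cell-like cells (edgeR adjusted p = 0.0395), and in B cell-like cells Ier3 rose by 3.28 ± 0.84, Egr2 by 3.23 ± 0.90 and Trib1 by 1.82 ± 0.45 (edgeR adjusted p = 0.0323, 0.0479 and 0.0249). Under WD+F+CCl4 6 rose (2.49%, against 3.88% of all genes) and 1 fell, with a median of 0.34. They included Ier5l in conventional DC-like cells (3.92 ± 1.04), Socs3, a brake on cytokine signals, in B cell-like cells (1.95 ± 0.43) and Zfp36l1, an mRNA decay factor, in classical monocyte-like cells (1.41 ± 0.28), while Nr4a3 fell by 1.70 ± 0.37 in T cell-like cells (edgeR adjusted p = 0.0412, 0.00892, 0.0129 and 0.0226). Of 16 other bZIP genes, which encode possible partners or rivals of AP-1, 10 of 120 pairs rose under HFD+F+CCl4 (8.33%, against 2.45% of all genes) and 11 of 116 without replicate 1 of that group. Under WD+F+CCl4 12 rose (10%, against 3.88%) and 2 fell. In classical monocyte-like cells Nfe2l2, the oxidative stress factor, rose by 1.67 ± 0.30 under HFD+F+CCl4, and Jdp2, a repressor of AP-1, rose by 1.75 ± 0.34 and Batf3 fell by 1.30 ± 0.25 under WD+F+CCl4 (edgeR adjusted p = 0.0117, 0.0114 and 0.0119). Batf3 and Crem rose under HFD+F+CCl4 in NK cell-like and T cell-like cells, by 2.11 ± 0.52 and 1.64 ± 0.41, and Nfe2l2 under WD+F+CCl4 in B cell-like cells, by 1.28 ± 0.34 (edgeR adjusted p = 0.0253, 0.0420 and 0.0260). The 23 tested genes of 25 upstream kinases and factors gave 5 rises and 2 falls in 174 pairs under HFD+F+CCl4, where 2.87% of pairs rose against 2.45% of all genes, and 12 rises and 3 falls under WD+F+CCl4 (6.90% higher, against 3.88%). Map3k8, a kinase of the ERK pathway, rose in conventional DC-like cells under both, by 1.87 ± 0.37 and 1.71 ± 0.37 (edgeR adjusted p = 0.0231 and 0.0196), and Mapkapk2, a kinase under p38, in NK cell-like cells, by 1.42 ± 0.30 and 1.87 ± 0.29 (edgeR adjusted p = 0.0106 and 0.000977). Map2k2 rose by 0.71 ± 0.16 and Mapk3 by 1.02 ± 0.20 in classical monocyte-like cells, under HFD+F+CCl4 and WD+F+CCl4 respectively, while Map2k7 fell by 0.70 ± 0.18 in T cell-like cells under HFD+F+CCl4 and Map2k6 by 1.72 ± 0.43 in conventional DC-like cells under WD+F+CCl4 (edgeR adjusted p = 0.0319, 0.0137, 0.0443 and 0.0335). The 12 heat shock chaperones gave no call of 91 under HFD+F+CCl4, Hspa1a and Hspa1b included. Under WD+F+CCl4 1 rose, Hsp90ab1 in NK cell-like cells, and Hspa8 fell in 2 types, conventional DC-like cells among them (-1.08 ± 0.23 on the log2 scale, edgeR adjusted p = 0.0168). The part of cell stress in the levels of the 10 genes was not tested. In classical monocyte-like cells the calls of these lists against control also come from groups of different make-up, as described above.

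Likeness to the 10 genes was measured over 100 pairs of mouse and cell type, as the correlation of log2(CPM + 10), centred within each type, with the mean of the 10. The points share libraries, so r is a description only. Of 3679 other genes with a mean above 50 CPM, Hspa1a was most alike (r = 0.93), followed by Zfp36, a decay factor for cytokine mRNAs (0.90), Hspa1b (0.89), Dusp1, a phosphatase acting on MAP kinases (0.88), Rhob (0.87), Nfkbiz (0.86), Ier3 (0.83), Zfand5 (0.82), Klf6 (0.81) and Ier5 (0.80). Without HFD+F+CCl4 replicate 1 these fell to between 0.45 and 0.81, with Hspa1a still highest. Among the 45 pairs of the 10 genes themselves, r ran from 0.23 (Fosl2 and Egr1) to 0.91 (Fos and Fosb), with a median of 0.67. The median was 0.38 without HFD+F+CCl4 replicate 1, where Fos and Fosb kept 0.86 and Fosl2 and Egr1 were at -0.17.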

How the data were processed

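Droplet single-cell RNA sequencing (10x, 3′ ends) was done on 1 liver of each of 8 mice. Per the file headers and the study's methods, the deposited values were raw UMI counts per gene and barcode, made by the authors with Cell Ranger against GRCm38 and combined in 1 matrix. The suffix of a barcode gave the mouse. The study's cell filter was applied (more than 500 genes, a mitochondrial share below 25%). No doublets were removed in the main analysis, and free RNA was not corrected for.

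Cells were clustered with scanpy 1.11.5 and leidenalg 0.10.2 (2000 variable genes, 30 components, resolution 0.5), leaving the 10 genes, other stress genes, and mitochondrial and ribosomal genes out of the variable genes. Clusters were named from marker lists, and 4 of 21 stayed unnamed. Counts were summed per mouse and type for at least 20 cells and tested with edgeR 4.0.16 (TMM, quasi-likelihood, all groups in 1 fit, Benjamini-Hochberg over all genes of a type, threshold 0.05). DESeq2 1.42.0 was an alternative, beside other scalings, filters, clusterings, left-out mice and removal of 7452 cells with the highest doublet scores. For HFD+F+CCl4 against control, edgeR recovered between 76% (cholangiocyte-like, 10475 genes) and 99% (classical monocyte-like, 12325 genes) of 200 simulated log2 changes of 2. The changed genes were drawn from those at or above the median count of the type, and were changed alike in all HFD+F+CCl4 mice. Recovery of genes with lower counts, or of rises carried by 1 mouse, was not simulated.

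The members and lists were chosen with earlier results of these data known. All 10 genes are described. Fold changes are given for pairs past the threshold, and of the other lists up to 4 genes a comparison with the largest change among those called are named. One gene that this rule names is not reported here. Floors cover counting error only.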

Additional observations from a re-analysis of the deposited data

Results flagged for a closer look

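In cluster 12, which no marker list named and whose leading genes included Elane, Mpo and Top2a, the lowest NASH mouse had 120.9 CPM of Jun and 35.17 CPM of Fos, above the highest control mouse at 95.66 and 30.75 CPM. In cluster 16, also unnamed and led by genes of dividing cells, the lowest NASH mouse had 50.16 CPM of Jun against 27.48 CPM in the highest control mouse. The control mice had 34 and 25 cells of cluster 12. These were 2 of the 10 genes in cluster 12 and 1 of the 10 in cluster 16, and in none of the others, nor in the opposite direction, were the groups apart. The share of all genes with this order was not counted in these clusters. In the cell types tested against control it ran from 6.2% to 18.6%, so these counts do not set the 10 genes apart. Egr1 in cluster 12 was at 143.5 CPM in control replicate 1 and at 0 in control replicate 2. The NASH mice, at 7.436 to 129.3 CPM, lay between them.

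Fosl2 was lower in all 3 WD+F+CCl4 mice than in both control mice in classical monocyte-like cells, with means of 44.07 and 79.3 CPM, and higher than in both in 2 other types. The difference between the types was not tested. The make-up of classical monocyte-like cells differed between control and NASH mice, as described above.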

How the results depend on the processing

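For HFD+F+CCl4 against control, the 7 calls became 2 without likely doublets, 55 with every gene of at least 1 count tested, 4 without scaling beyond library size and 12 with a replicate block, and ranged from 1 to 14 with 1 mouse left out. For WD+F+CCl4 against control, the 7 became 4 with DESeq2, 0 without likely doublets (edgeR), 44 with every gene of at least 1 count, 4 without scaling, 14 with only the 2 groups compared and 12 with a replicate block, from 1 to 15 with 1 mouse left out, and 25 without HFD+F+CCl4 replicate 1 and WD+F+CCl4 replicate 3, a setting chosen after seeing the data. Between the diets, the 0 calls became 14 with every gene of at least 1 count and 1 without those 2 mice, and stayed at 0 with any 1 mouse left out. The 0 differences between myeloid and lymphoid cells became 1 with DESeq2, 2 with its size factors, 1 without likely doublets, 9 with every gene of at least 1 count, 1 with over 1000 genes per cell and 2 without scaling, and ranged from 0 to 2 with 1 mouse left out. The 28 pairs with every NASH mouse above both control mice became 15 without likely doublets and 28 to 37 with 1 mouse left out. The cause of these changes was not tested. Without HFD+F+CCl4 replicate 1 and WD+F+CCl4 replicate 3, 0.375% of all genes were higher and 0.204% lower between the diets. With all mice these shares were 0.00117% and 0.02%. For most other settings no share of all genes is set beside the counts. The counts alone therefore do not show whether a change was particular to the genes followed here. None of the 305 recomputed fold changes of called pairs turned in direction: 232 stayed past the threshold and 73 did not. Leaving out scaling moved the median of all genes by -0.20 to 0.01 on the log2 scale.

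Of 52 correlations of deviations from group means between same-numbered mice, 2 were over 0.1 (-0.33 to 0.15). Such deviations sum to 0 within a group, and mice of different numbers were not set beside them. Whether replicate numbers pair the mice can therefore not be told from these values. The block gave 12 calls in each comparison with control and kept 5 of the 7 in each. Depth limits control replicate 2 most, with a median of 992.5 UMIs per cell.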
